A study of Mus musculus with 9 samples.

Results

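The cytochrome P450 and glutathione transferase genes of mouse were examined in tibia. They were all rows of the deposited expression table whose symbol begins with Cyp and a digit, or with Gst, 1 of the class letters a, m, p, t, o, z or k, and a digit. This rule found 123 of the 22183 genes in the table, of which 100 were P450 genes and 23 were glutathione transferase (GST) genes. A gene was counted as expressed when its FPKM value (fragments scaled to transcript length and library depth) was at least 1 in at least 3 of the 9 libraries. By that rule 30 of the 123 genes were expressed in tibia, 15 P450 genes and 15 GST genes.

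P450 enzymes are haem monooxygenases that insert oxygen into steroids, sterols, fatty acids, vitamins and foreign compounds, and they take electrons from a small set of reductases and cytochromes. Glutathione transferases join glutathione to electrophiles, among them products of lipid peroxidation and of P450 reactions, and are divided into classes by sequence. Liver carries most of the P450 enzymes that act on drugs, whereas the P450 enzymes known for a role in bone are those that make and break down vitamin D, retinoic acid and sex steroids.

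Polyadenylated RNA from tibiae of mice was sequenced in 9 libraries, 3 per group. Mice of the Ti+I-OG group were given titanium particles together with I-OG, a natural-polymer hydrogel for injection that carries irisin, a hormone that muscle releases. Mice of the Ti group were given titanium particles alone, a model of the wear debris that loosens implants. Naive mice were left untreated, so an effect of the particles cannot be told apart from one of the procedure. Hydrogel tibiae were analysed after 5 weeks of treatment, whereas times for Ti and naive mice, and the strain and age of all mice, are not stated in the labels. Whether the libraries of a group are from different animals is not stated either, and p-values then reflect only the spread among these libraries, which may be technical.

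The libraries held 16256081 to 24766502 counts. Markers of bone and marrow were present in every library. The FPKM of 11 osteoblast markers summed to 2929 to 3612 in Ti+I-OG, 4455 to 4588 in Ti and 884 to 2565 in naive libraries. Markers of hepatocytes, the main P450-bearing cell, were low, with a sum over 8 genes of 5.33 to 10.2 FPKM in Ti+I-OG, 6.76 to 16.7 in Ti and 2.34 to 21.7 in naive libraries. The sum of 6 skin markers did not exceed 1.15 FPKM in any library, and Flg2 among them was listed at 0 throughout. Naive replicate 3 stood apart within its group, with an osteoblast sum of 884 FPKM where the other naive libraries had 2233 and 2565, and a B-lineage sum over 9 genes of 79.5 FPKM where they had 161 and 234. Results against naive are therefore also given without it.

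The share of expressed genes differed between the families. Of the 100 P450 genes, 15.0% were expressed, against 65.2% of the 23 GST genes and 55.1% of all 22183 genes in the table. No count fell on 45 of the 123 genes in any library, 43 P450 genes and the GST genes Gstm3 and Gstt4. For a gene without a count, the floor of 3 counts corresponded to 0.121 to 0.185 CPM (counts scaled to library size) per library, a limit that covers counting error only. None of the 9 CYP3 genes, the group that in liver clears many drugs, was expressed, and 5 of them had no count. The CYP2 family, also known mainly from liver and lung, had 4 of 48 genes expressed and 27 without a count, and the CYP4 family of fatty acid hydroxylases had 5 of 20 expressed. Among the GST classes, all 3 pi genes, 5 of 7 mu genes and 3 of 4 theta genes were expressed, whereas 1 of 5 alpha genes was. Just inside the expression rule were Cyp2d22 and Gstm7, whose third-highest library had 1.00 and 1.16 FPKM. Just outside it were Cyp2j9 and Gsta3, with 0.817 and 0.767 FPKM.

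**Figure D1:**
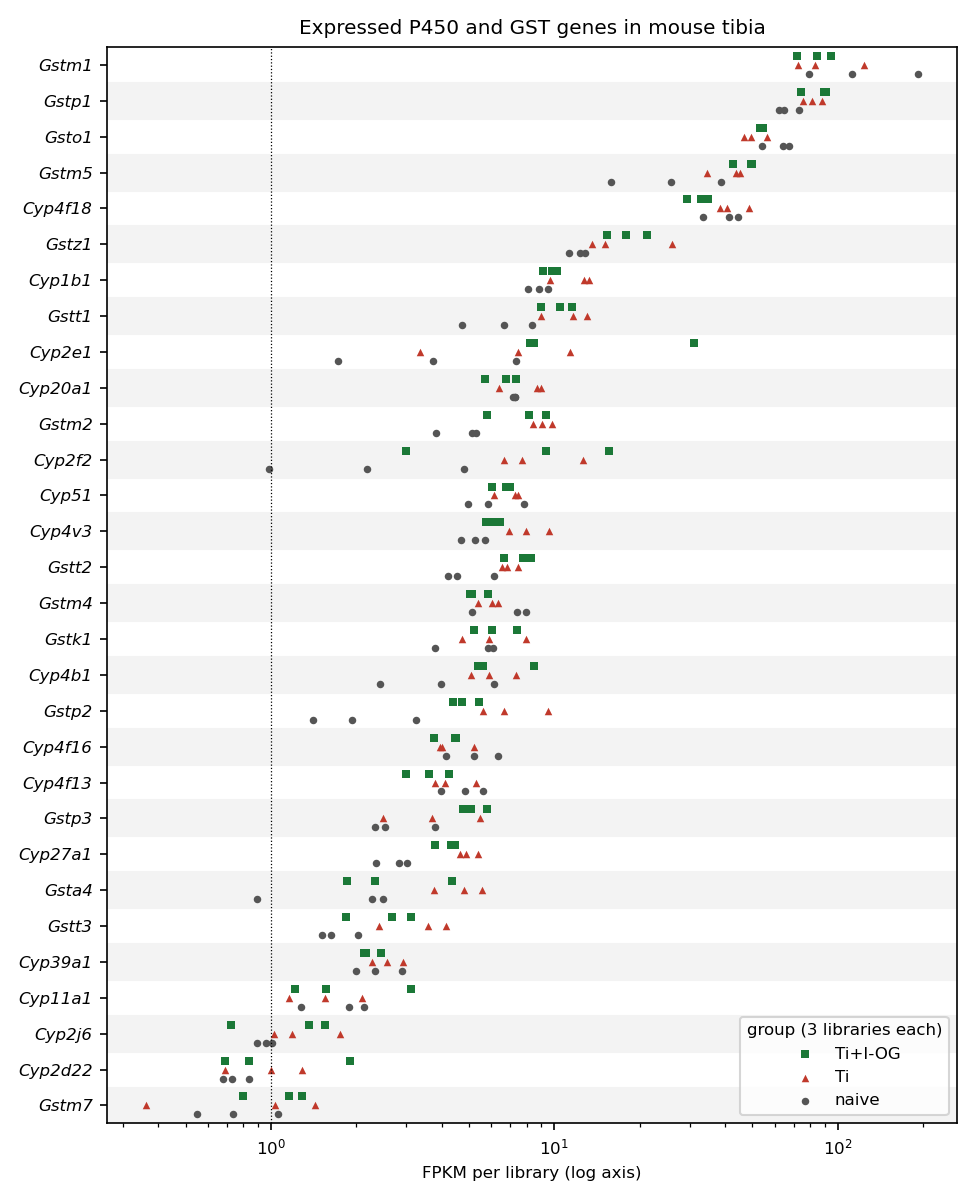
FPKM of the 30 expressed P450 and GST genes in each of the 9 libraries, on a log axis, in order of their mean. Squares are Ti+I-OG, triangles Ti and circles naive libraries, 3 each, and the dotted line marks 1 FPKM. Most genes lie between 1 and 10 FPKM, and 7 genes from Gstm1 to Cyp1b1 average over 10 FPKM.

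GST mRNA was concentrated in a few genes. On the FPKM scale, which is per length, Gstm1, Gstp1, Gsto1 and Gstm5 together held 80.0% of the sum of the GST means, and Gstm1 alone held 29.8%. Gstm1, a mu-class enzyme of broad substrate range, had 71.7, 84.3 and 94.3 FPKM in Ti+I-OG, 83.2, 72.5 and 124 FPKM in Ti and 113, 79.1 and 193 FPKM in naive libraries. The groups overlapped, and naive replicate 3 was the highest library of all. Gsto1, an omega-class enzyme that reduces dehydroascorbate, varied less, with 53.1, 53.3 and 54.6 FPKM in Ti+I-OG, 49.3, 46.7 and 56.2 FPKM in Ti and 64.2, 54.0 and 67.1 FPKM in naive libraries. Neither gene passed the test in any comparison.

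P450 mRNA was led by 1 gene. Cyp4f18, which in mouse neutrophils oxidises leukotrienes at the end of the chain, held 33.5% of the sum of the P450 means. It had 29.3, 34.8 and 32.9 FPKM in Ti+I-OG, 38.4, 40.7 and 48.8 FPKM in Ti and 41.3, 33.4 and 44.5 FPKM in naive libraries. In FPKM all Ti+I-OG libraries lay below all Ti libraries and the naive ones overlapped both, whereas in normalised CPM the Ti+I-OG and Ti libraries overlapped. Neither comparison passed (adjusted p of edgeR's quasi-likelihood test 0.653 against Ti and 0.683 against naive). Next came Cyp1b1, an enzyme that hydroxylates oestrogens and is a known target of the aryl hydrocarbon receptor, with a mean of 10.2 FPKM over the 9 libraries. Cyp2e1, which oxidises ethanol and ketones, averaged 9.18 FPKM, and Cyp20a1, a P450 without an assigned substrate, 7.28 FPKM. Cyp20a1 was nearly level across the naive libraries at 7.14, 7.24 and 7.28 FPKM, with 6.75, 5.68 and 7.31 FPKM in Ti+I-OG and 9.004, 6.40 and 8.70 FPKM in Ti libraries.

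Summed over the family, P450 mRNA was 116 ± 23.7 FPKM in Ti+I-OG, 125 ± 6.65 in Ti and 101 ± 1.96 in naive libraries (SD, n = 3 each), a description without a test. Each of the 3 Ti sums lay above each naive sum. The Ti+I-OG sums were 97.3, 109 and 142.9 FPKM and overlapped both other groups. FPKM lacks the library factors behind normalised CPM, which were 0.896 to 0.977 in Ti+I-OG and 1.04 to 1.09 in naive libraries. The overlap with naive may therefore depend on the scale, and sums on the normalised scale were not made. Without Cyp4f18 the P450 sums were 68.0, 74.0 and 110.0 FPKM in Ti+I-OG, 82.1, 92.3 and 74.0 FPKM in Ti and 61.8, 65.9 and 55.9 FPKM in naive libraries, so that neither treated group overlapped the naive one. GST mRNA summed to 343 ± 24.9 FPKM in Ti+I-OG, 346 ± 27.95 in Ti and 335 ± 42.5 in naive libraries, and the groups overlapped. Without Gstm1 the GST sums were 243, 265 and 269 FPKM in Ti+I-OG, 248, 256 and 254 FPKM in Ti and 211, 219.5 and 189 FPKM in naive libraries, so that neither treated group overlapped the naive one.

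Of the 123 genes, 43 had enough counts to be tested, 26 P450 and 17 GST genes, in a fit over 14211 genes. The 80 genes left out held at most 71 counts each over all libraries. A gene passed when its Benjamini-Hochberg adjusted p over all 14211 genes was under 0.05. The naive libraries serve in both comparisons against naive, which are therefore not independent of each other.

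Against naive, titanium particles went with higher mRNA of 4 of the 43 tested genes and lower mRNA of none. These were the P450 genes Cyp27a1 and Cyp4v3 and the GST genes Gstm2 and Gstp2, with log2 fold changes of 0.72 to 1.74. The 4 genes are 9.30% of those tested, where 6.43% of all tested genes passed in this comparison 4.05% passed as higher and 2.39% as lower. Over all 43 genes the log2 fold change was positive for 34, with a median of 0.54, where it was positive for 7206 of all 14211 genes with a median of 0.01. In normalised CPM, 16 genes (37.2%) had every Ti library above every naive one and 1 gene, Cyp2b10, had every one below, where 14.3% and 12.9% of all tested genes were so placed. Tibiae hold many cell types, and fewer cells of a type cannot be told apart from less RNA per cell.

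In tibiae with particles and hydrogel, 7 of the 43 genes were higher than in naive tibiae and none was lower. Of these 6 were GST genes, Gstm2, Gstm5, Gstp1, Gstp2, Gstt2 and Gstz1, and 1 was a P450 gene, Cyp27a1. The 7 genes are 16.3% of those tested, where 8.26% of all tested genes passed 3.84% passed as higher and 4.43% as lower. By family, 6 of the 17 tested GST genes (35.3%) and 1 of the 26 tested P450 genes (3.85%) passed. The median log2 fold change was 0.65 over the 43 genes and 0.03 over all tested genes, and it was positive for 33 genes. On the same scale 16 genes (37.2%) had every Ti+I-OG library above every naive one and 2 genes (4.65%), Cyp2b10 and Cyp4x1, had every one below, where 18.7% and 16.9% of all tested genes were so placed. Deviations from group means correlated weakly between same-numbered libraries of these groups (r of 0.197, 0.115 and 0.273). Same-numbered Ti and naive libraries had r of -0.0238, 0.333 and 0.239, so this was not particular to Ti+I-OG and naive. The labels do not state that the numbers are pairs. With the replicate number as a block over all 9 libraries, 13 genes passed, all higher, where 24.3% of all tested genes passed. They were the 7 above and Cyp2e1, Cyp2f2, Cyp4v3, Gstp3, Gstt1 and Gstt3. Blocked counts for Ti over naive are given at the end. On a log2(FPKM + 1) scale with limma the share of higher genes among all that passed was 16.2% instead of 46.4%, and the median of all genes lay at -0.12. There 5 of the 43 genes passed, 4 higher and 1, Cyp2b10, lower, where 12.6% of all tested genes passed.

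Between Ti+I-OG and Ti libraries none of the 43 genes passed edgeR's test, where 6 of 14211 genes (0.0422%) did, and DESeq2 and limma called none either. At an unadjusted p under 0.05 there was 1 gene, Cyp4x1, where 7.84% of all tested genes reached that level. The log2 fold change, Ti+I-OG over Ti, ran from -1.38 for Cyp4x1 to 1.19 for Cyp2e1, with a median of 0.04. In normalised CPM, 2 genes (4.65%), Gsto1 and Cyp4f17, had every Ti+I-OG library above every Ti one, and 4 (9.30%), Gstm6, Cyp2ab1, Cyp26b1 and Cyp4x1, had every one below, where 7.75% and 6.71% of all tested genes were so placed. Cyp4x1, a fatty acid hydroxylase family member, had 0.033, 0.073 and 0.040 FPKM in Ti+I-OG, 0.171, 0.096 and 0.142 FPKM in Ti and 0.211, 0.116 and 0.269 FPKM in naive libraries. It had 96 counts in all. Its 0.149, 0.343 and 0.170 CPM in Ti+I-OG lay close to the floor of 3 counts, 0.136, 0.185 and 0.166 CPM, so the size of its difference is uncertain. For the 8 genes that passed against naive in either treated group, this fold change lay between -0.43 for Gstp2 and 0.32 for Gstm5, with SEs of 0.13 to 0.33. Tested for any difference among the 3 groups, 5 of the 43 genes (11.6%) passed, Cyp27a1, Cyp4v3, Gstm2, Gstp2 and Gstt2, where 5.77% of all tested genes did.

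The number of calls against naive, among these genes and among all genes, depended on which library was left out. The range over all such fits is given at the end. Without naive replicate 3, Ti replicate 1 or Ti replicate 2, none of the 43 genes passed between Ti and naive. Without naive replicate 3 or any 1 of the Ti+I-OG libraries, none passed between Ti+I-OG and naive. Without naive replicate 1 the counts were 1 between Ti+I-OG and naive and 2 between Ti and naive, and without Ti replicate 1 the count between Ti+I-OG and naive was 2. Without naive replicate 2 the counts were 10 between Ti+I-OG and naive and 8 between Ti and naive, and without Ti replicate 3 the count between Ti and naive was 8. The number called among all genes moved in the same direction. Between Ti+I-OG and naive, 2119 of all genes passed without naive replicate 2, 187 without naive replicate 3, 369 without naive replicate 1 and 580 without Ti replicate 1, beside 1174 with all libraries. Between Ti and naive, 1428 passed without naive replicate 2, 1999 without Ti replicate 3, 405 without naive replicate 1, 213 without naive replicate 3 and 100 without Ti replicate 1, beside 914 with all libraries. In all these fits the fold changes of the called genes had the same sign. Their largest adjusted p with 1 library left out was 0.118 between Ti and naive and 0.170 between Ti+I-OG and naive (edgeR's quasi-likelihood test).

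**Figure D2:**
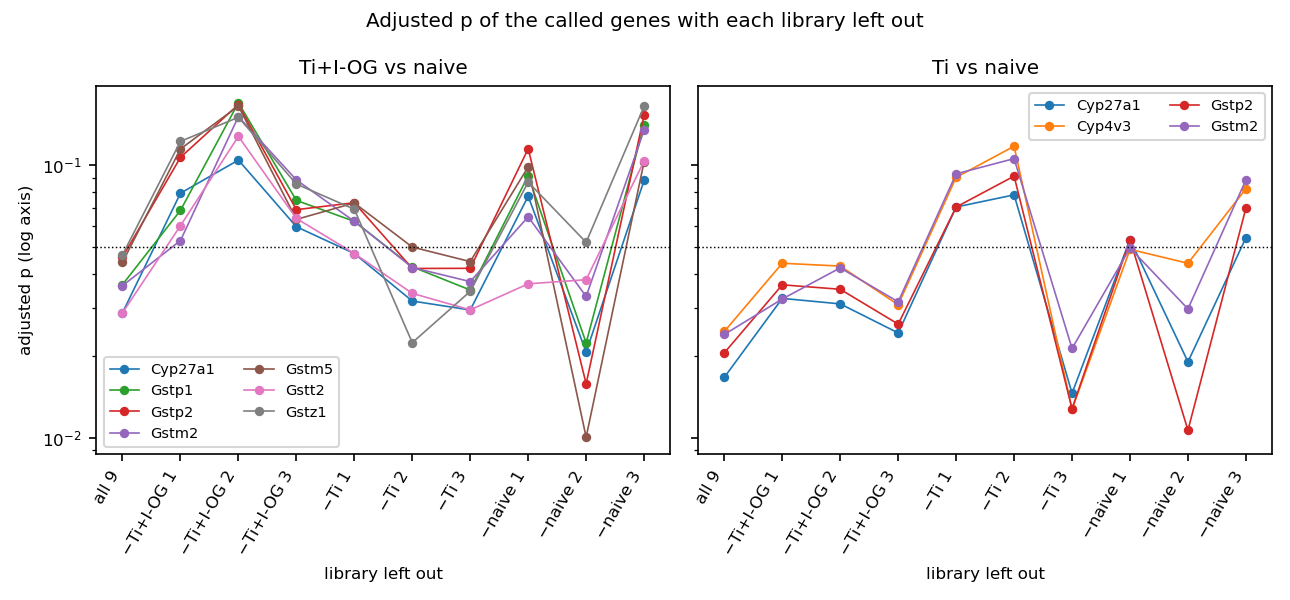
Adjusted p (log axis) of the genes that passed between Ti+I-OG and naive (left) and between Ti and naive (right), with all 9 libraries and with each library left out in turn. Lines join the values of a gene and the dotted line is the threshold of 0.05. All lines are above it without naive replicate 3 in both panels.

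Markers of other cells moved with the same comparisons, and their part in the P450 and GST results was not tested. Against naive, 1 of 11 osteoblast, 6 of 8 osteoclast and 5 of 7 tendon markers were higher in Ti+I-OG, and 7 of 11, 6 of 8 and 6 of 7 of them were higher in Ti. Of 7 osteocyte markers, 5 were higher in Ti+I-OG, and 6 were higher and 1 was lower in Ti. Of 8 chondrocyte markers, 1 was higher in Ti+I-OG and 3 in Ti. Of 7 mast cell markers, 3 were higher and 1 was lower in Ti+I-OG, and 3 were higher in Ti. Tendon markers summed to 32.3 to 48.1 FPKM in Ti+I-OG, 41.8 to 77.6 in Ti and 8.65 to 10.5 in naive libraries, and osteoclast markers to 1040 to 1406, 1410 to 1587 and 582 to 953 FPKM in Ti+I-OG, Ti and naive libraries. Of the 8 adipocyte markers, 3 were higher in Ti+I-OG than in naive libraries and none passed in Ti, with sums of 416 to 1067 FPKM in Ti+I-OG, 420 to 974 in Ti and 160.5 to 402 in naive libraries. Of the 9 erythroid markers, 5 were higher in Ti+I-OG than in naive libraries and none passed in Ti, with sums of 240500 to 254200 FPKM in Ti+I-OG, 107200 to 159600 in Ti and 47660 to 151600 in naive libraries. Of 10 neutrophil markers, none passed in Ti+I-OG and 2 were lower in Ti, with median log2 fold changes over naive of -0.54 and -0.28. Of 8 macrophage markers, 1 was higher in Ti+I-OG, and 1 was higher and 1 was lower in Ti. Of 9 skeletal muscle markers, 1 was higher in each treated group. None of the 9 B-lineage or 7 endothelial markers passed in either group. None of the markers in these lists was at 0 in every library.

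Promoters are shown for the genes that the comparisons turn on, the near-identical pair Gstp1 and Gstp2, the mu genes Gstm5 and Gstm2, and Cyp27a1. Each is the 250 bases before the RefSeq start on build GRCm38.p6, read in the direction of transcription, and RefSeq promoters were found for 26 of the 30 expressed genes. Capitals mark matches on either strand to TGACNNNGC, the core of the antioxidant response element bound by NRF2, to GCGTG, the core of the xenobiotic response element bound by the aryl hydrocarbon receptor, and to TGACTCA, the AP-1 element bound by Fos and Jun proteins.
Gstp1 promoter, chr19:4037913-4038162, strand minus: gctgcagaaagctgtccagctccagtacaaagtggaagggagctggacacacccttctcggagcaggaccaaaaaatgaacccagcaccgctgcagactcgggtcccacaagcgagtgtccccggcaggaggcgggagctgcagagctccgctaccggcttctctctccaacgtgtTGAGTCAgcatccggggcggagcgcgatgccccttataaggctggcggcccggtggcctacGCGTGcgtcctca
Gstp2 promoter, chr19:4042222-4042471, strand minus: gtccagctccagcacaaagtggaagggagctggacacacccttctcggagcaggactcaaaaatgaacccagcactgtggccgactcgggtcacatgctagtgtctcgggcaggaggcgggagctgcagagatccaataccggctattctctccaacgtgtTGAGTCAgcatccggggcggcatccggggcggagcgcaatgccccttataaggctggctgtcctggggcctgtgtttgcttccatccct
Gstm5 promoter, chr3:107895604-107895853, strand plus: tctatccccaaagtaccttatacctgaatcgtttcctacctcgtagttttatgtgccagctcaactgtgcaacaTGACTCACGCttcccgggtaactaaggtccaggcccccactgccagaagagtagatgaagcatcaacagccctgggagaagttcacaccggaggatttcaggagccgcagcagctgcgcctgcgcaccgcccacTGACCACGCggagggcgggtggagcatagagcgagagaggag
Gstm2 promoter, chr3:107986421-107986670, strand minus: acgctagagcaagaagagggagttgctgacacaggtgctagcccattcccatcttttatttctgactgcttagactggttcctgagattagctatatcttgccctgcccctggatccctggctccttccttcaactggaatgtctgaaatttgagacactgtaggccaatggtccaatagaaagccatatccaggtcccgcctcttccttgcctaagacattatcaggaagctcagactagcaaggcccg
Cyp27a1 promoter, chr1:74713285-74713534, strand plus: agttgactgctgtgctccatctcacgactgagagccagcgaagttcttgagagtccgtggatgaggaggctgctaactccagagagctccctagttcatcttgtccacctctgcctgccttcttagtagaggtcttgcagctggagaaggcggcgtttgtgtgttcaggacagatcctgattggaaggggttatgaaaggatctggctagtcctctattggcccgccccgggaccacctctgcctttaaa
The AP-1 letters, searched for after these sequences had been seen, stand in Gstp1 from position -74, in Gstp2 from -89 and in Gstm5 from -176, where -1 is the base before the start. In Gstm5 they overlap a match to the xenobiotic element at -171, and the antioxidant match at -42 overlaps another xenobiotic match at -38. Gstp1 also has a xenobiotic match at -13. Neither Gstm2 nor Cyp27a1 has a match to any of the 3 motifs in these windows. Among the 32 promoters of expressed P450 and GST genes, 3 (9.38%) hold the antioxidant core, 10 (31.25%) the xenobiotic core and 4 (12.5%) the AP-1 element. Among all 32851 mouse promoters of the same length the shares are 10.2%, 28.2% and 4.46%. Among the 115 promoters of all P450 and GST genes matched, expressed or not, they are 5.22%, 20.0% and 6.09%. The AP-1 share includes the Gstp1, Gstp2 and Gstm5 promoters in which the letters had been seen, so it is not an independent count. Some genes enter with overlapping windows, and the xenobiotic match of Gstm1 is counted in both of its windows. A match describes the letters and does not show binding.

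Cyp27a1 encodes the mitochondrial sterol hydroxylase that starts the acidic route of bile acid synthesis and can also hydroxylate vitamin D. It had 4.33, 3.80 and 4.45 FPKM in Ti+I-OG, 4.89, 5.38 and 4.64 FPKM in Ti and 2.35, 3.02 and 2.83 FPKM in naive libraries. All libraries of both treated groups were above all naive ones. The log2 fold change was 0.81 (SE 0.18, adjusted p of edgeR's quasi-likelihood test 0.0287) for Ti+I-OG over naive and 0.94 (SE 0.18, adjusted p 0.0167) for Ti over naive. Without naive replicate 3 these adjusted p values were 0.0881 and 0.0543.

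The other vitamin D and sterol P450 genes did not pass in any comparison. Cyp2r1, the main vitamin D hydroxylase of liver, had a mean of 0.621 FPKM over the 9 libraries and was not expressed by the rule. Cyp27b1, which makes the active hormone, had 5 counts in all, in 3 libraries, and Cyp24a1, which breaks it down, had none in any. Cyp51, the demethylase of cholesterol synthesis that acts on lanosterol, had 6.04 to 6.96 FPKM in Ti+I-OG, 6.12 to 7.45 in Ti and 4.97 to 7.79 in naive libraries. Cyp39a1 and Cyp7b1, which hydroxylate oxysterols, averaged 2.42 and 0.317 FPKM, and the groups overlapped for both.

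Of the 9 steroid hormone and retinoic acid P450 genes 1 was expressed, and none passed in any comparison. Cyp11a1, which cuts the side chain of cholesterol at the first step of steroid synthesis, had 1.22 to 3.12 FPKM in Ti+I-OG, 1.16 to 2.10 in Ti and 1.28 to 2.13 in naive libraries. Cyp19a1, the aromatase, had no count in any library, and Cyp17a1, which leads to androgens, had 3 counts in all. Of the retinoic acid hydroxylases, Cyp26b1 had 0.274, 0.115 and 0.204 FPKM in Ti+I-OG, 0.376, 0.330 and 0.324 FPKM in Ti and 0.169, 0.295 and 0.125 FPKM in naive libraries. Its 3 Ti libraries were above all 6 others, with a log2 fold change over naive of 0.98 (SE 0.44) that did not pass (adjusted p 0.174 by edgeR). Cyp26a1 had 25 counts in all and was not tested.

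Cyp4v3, the mouse counterpart of a human fatty acid hydroxylase gene, passed between Ti and naive. It had 6.45, 6.14 and 5.74 FPKM in Ti+I-OG, 7.94, 9.61 and 6.90 FPKM in Ti and 5.71, 4.68 and 5.25 FPKM in naive libraries. In FPKM the Ti libraries were above all others and the Ti+I-OG libraries above the naive ones by a small margin. In normalised CPM the Ti and Ti+I-OG libraries overlapped and both lay above the naive ones. Its log2 fold change was 0.43 (SE 0.16, adjusted p 0.0986 by edgeR, and 0.0451 with the replicate block) for Ti+I-OG over naive and 0.72 (SE 0.16, adjusted p 0.0245) for Ti over naive. For Ti+I-OG over Ti it was -0.29 (SE 0.16, adjusted p 0.657 by edgeR), so a difference between the treated groups was not shown. Without naive replicate 3 the adjusted p for Ti over naive was 0.0821. The other expressed genes of the CYP4 family beside Cyp4f18, Cyp4b1, Cyp4f13 and Cyp4f16, averaged 5.59, 4.28 and 4.62 FPKM over the 9 libraries, and their groups overlapped in every comparison.

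The foreign-compound P450 genes of the CYP1 and CYP2 families did not pass in the filtered edgeR fit without the replicate block. Some passed in other fits without the block. For Ti+I-OG over naive, edgeR without the count filter called Cyp2e1 and Cyp2f2 and DESeq2 called Cyp2e1, all higher, and limma on log2(FPKM + 1) called Cyp2b10 lower. For Ti over naive, DESeq2 called Cyp1b1 higher. Some fits with a library left out called such genes as well. Cyp1b1 had 9.14, 10.2 and 9.84 FPKM in Ti+I-OG, 12.8, 13.3 and 9.62 FPKM in Ti and 8.04, 8.85 and 9.53 FPKM in naive libraries. Every Ti library was above every naive one, the closest by a narrow margin, and the log2 fold change of 0.46 (SE 0.14) had an adjusted p of 0.0719 by edgeR. With the replicate block Cyp1b1 passed for Ti over naive. Cyp1a1, the classic target of the aryl hydrocarbon receptor, had 61 counts in all and was not tested.

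Cyp2e1 and Cyp2f2 varied widely between libraries. Cyp2e1 had 8.21, 8.46 and 31.1 FPKM in Ti+I-OG, 7.43, 11.3 and 3.36 FPKM in Ti and 3.75, 7.30 and 1.73 FPKM in naive libraries. Ti+I-OG replicate 3 stood far above the other 8 libraries, and it also had the highest sum of adipocyte markers, 1067 FPKM, where the other Ti+I-OG libraries had 416 and 674. All Ti+I-OG libraries were above the naive ones, and the log2 fold change of Cyp2e1 was 2.07 (SE 0.61, adjusted p 0.0564 by edgeR, and 0.0322 with the replicate block). Cyp2f2, which activates naphthalene in mouse lung, had 2.996, 9.36 and 15.6 FPKM in Ti+I-OG, 7.69, 12.6 and 6.62 FPKM in Ti and 2.19, 4.80 and 0.982 FPKM in naive libraries. Its log2 fold changes of 1.93 (SE 0.58) for Ti+I-OG and 1.83 (SE 0.58) for Ti over naive did not pass (adjusted p 0.0593 and 0.0776 by edgeR). With the replicate block the adjusted p for Ti+I-OG over naive was 0.0197, and Ti over naive passed as well. Within each group the order of the libraries in Cyp2f2 was that of the adipocyte sums. The skin sums had the same order in Ti+I-OG and Ti but not in naive libraries. Ti+I-OG replicate 3 also had the highest skin and endothelial sums, 1.15 and 87.1 FPKM. A link of Cyp2e1 or Cyp2f2 to any of these cell types was not tested.

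The remaining CYP2 genes were at low level. Cyp2j6, which forms epoxides of arachidonic acid, had 1.36, 1.55 and 0.721 FPKM in Ti+I-OG, 1.76, 1.03 and 1.18 FPKM in Ti and 0.963, 1.01 and 0.890 FPKM in naive libraries. Cyp2s1, under the expression rule, had 0.464, 0.403 and 0.360 FPKM in Ti+I-OG, 0.486, 0.333 and 0.661 FPKM in Ti and 0.147, 0.177 and 0.267 FPKM in naive libraries. All treated libraries of Cyp2s1 were above all naive ones, and neither comparison passed (adjusted p 0.067 for Ti+I-OG and 0.101 for Ti over naive, edgeR). Cyp2b10, an inducible liver enzyme, was opposite in sign, with 0.047, 0.034 and 0.260 FPKM in Ti+I-OG, 0.124, 0.023 and 0.233 FPKM in Ti and 0.337, 0.612 and 0.502 FPKM in naive libraries. It had 87 counts in all and did not pass by edgeR (adjusted p 0.135 for Ti+I-OG and 0.146 for Ti over naive). Cyp2d22, just inside the expression rule, had 0.689 to 1.90 FPKM in Ti+I-OG, 0.688 to 1.29 FPKM in Ti and 0.679 to 0.840 FPKM in naive libraries.

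**Figure D3:**
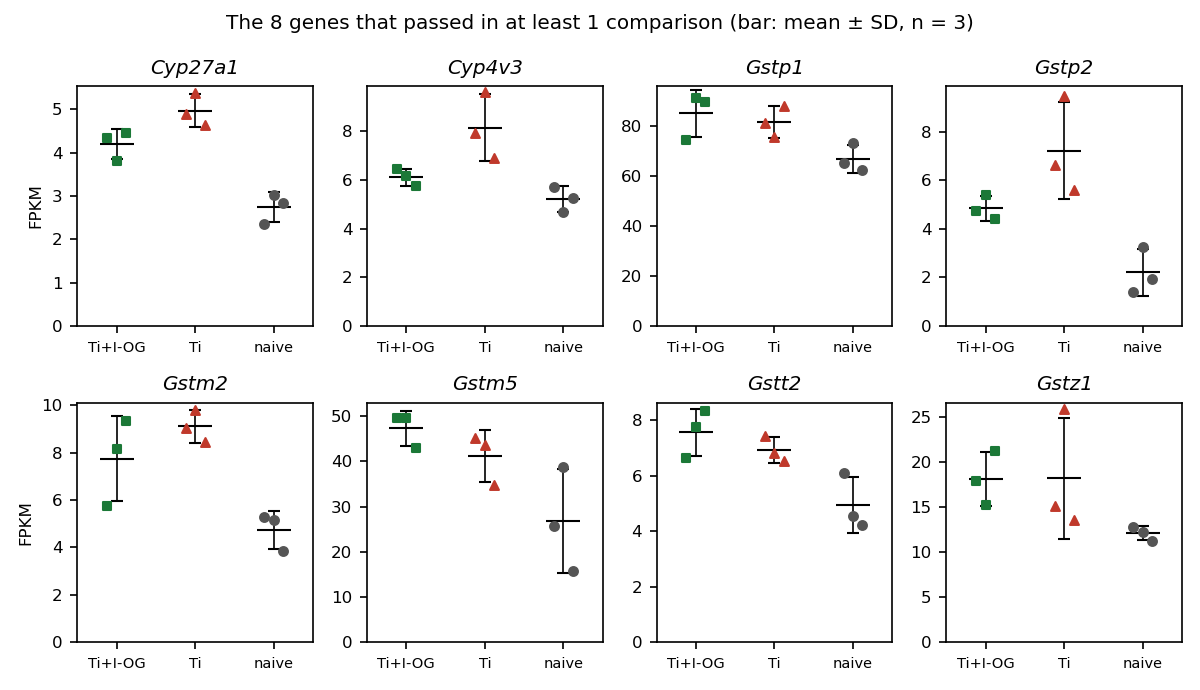
FPKM per library of the 8 genes that passed against naive in at least 1 treated group, with Ti+I-OG at the left of each panel, Ti in the middle and naive at the right. Bars give the mean and SD of 3 libraries, and each vertical axis starts at 0. In every panel except Gstm5 all libraries of both treated groups are above all naive ones, in some by a narrow margin.

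The pi class held the largest change among the called genes. Gstp1, the abundant pi enzyme, had 74.2, 91.1 and 89.2 FPKM in Ti+I-OG, 80.8, 75.2 and 87.9 FPKM in Ti and 64.9, 73.1 and 62.2 FPKM in naive libraries. The treated libraries were above the naive ones, by a narrow margin at the nearest, and the log2 fold change was 0.54 (SE 0.13, adjusted p 0.0365 by edgeR) for Ti+I-OG and 0.36 (SE 0.13, adjusted p 0.119) for Ti over naive. Gstp2, its neighbour, had 4.72, 5.41 and 4.39 FPKM in Ti+I-OG, 6.63, 9.47 and 5.58 FPKM in Ti and 1.41, 3.26 and 1.94 FPKM in naive libraries. The log2 fold change of Gstp2 was 1.31 (SE 0.35, adjusted p 0.0460 by edgeR) for Ti+I-OG and 1.74 (SE 0.35, adjusted p 0.0205) for Ti over naive. Both treated groups were above naive in every library of both genes.

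The Gstp1 and Gstp2 values are uncertain as separate genes. Of the 75-base windows of the Gstp1 transcript, 57.7% also occur in Gstp2. Of those of Gstp2, 59.6% also occur in Gstp1 and 68.2% in any other gene, Gstp1 included. How reads were divided between the pair therefore depends on the authors' estimation. Gstp2 took 5.77%, 5.22% and 4.55% of the counts of the pair in Ti+I-OG, 7.08%, 10.8% and 5.40% in Ti and 2.01%, 4.18% and 2.97% in naive libraries. With the counts of the pair summed as 1 feature, an alternative chosen after seeing the data, the log2 fold change was 0.57 (adjusted p 0.0305 by edgeR) for Ti+I-OG over naive and 0.43 (adjusted p 0.0719) for Ti over naive. Because Gstp2 held at most 10.8% of the pair's counts, the sum mostly repeats Gstp1. It therefore cannot decide the call of Gstp2 between Ti and naive. Gstp3, which shares no such window, had 5.07, 4.78 and 5.78 FPKM in Ti+I-OG, 3.70, 2.48 and 5.46 FPKM in Ti and 3.79, 2.53 and 2.33 FPKM in naive libraries. Its log2 fold change of 1.04 (SE 0.33) for Ti+I-OG over naive did not pass (adjusted p 0.0674 by edgeR), but passed with the replicate block (adjusted p 0.0377).

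The mu genes lie in a row on 1 chromosome, in the order Gstm5, Gstm7, Gstm6, Gstm3, Gstm2, Gstm1 and Gstm4, and their fold changes differed in sign. Gstm2 had 5.77, 8.15 and 9.31 FPKM in Ti+I-OG, 9.05, 9.81 and 8.44 FPKM in Ti and 5.28, 5.14 and 3.83 FPKM in naive libraries. No treated library overlapped the naive ones, and the log2 fold change was 0.89 (SE 0.22, adjusted p 0.0362 by edgeR) for Ti+I-OG and 1.01 (SE 0.22, adjusted p 0.0239) for Ti over naive. Gstm5, which lies at the other end of the row from Gstm1 and Gstm4, had 49.7, 49.5 and 42.9 FPKM in Ti+I-OG, 45.3, 43.6 and 34.7 FPKM in Ti and 25.8, 38.8 and 15.9 FPKM in naive libraries. Naive replicate 3 was lowest and naive replicate 2 overlapped the Ti libraries, and the log2 fold change was 1.02 (SE 0.27, adjusted p 0.0441 by edgeR) for Ti+I-OG and 0.70 (SE 0.27, adjusted p 0.129) for Ti over naive. Without naive replicate 3 the Ti+I-OG value of Gstm5 was 0.71 (adjusted p 0.103 by edgeR), and its exons overlap those of 4933431E20Rik, whose reads cannot be told apart without strand. Gstm1 and Gstm4 had negative fold changes of -0.41 and -0.27 for Ti+I-OG and -0.37 and -0.33 for Ti over naive, none of which passed (adjusted p 0.317 to 0.407 by edgeR). Gstm7, next to Gstm5 in the row, had 0.800 to 1.29 FPKM in Ti+I-OG, 0.362 to 1.43 FPKM in Ti and 0.547 to 1.06 FPKM in naive libraries.

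All 3 tested theta genes, which neighbour each other as well, had positive fold changes over naive in both treated groups, and 1 of them passed. Gstt2 had 6.64, 7.73 and 8.31 FPKM in Ti+I-OG, 7.42, 6.81 and 6.51 FPKM in Ti and 6.10, 4.54 and 4.22 FPKM in naive libraries. It passed for Ti+I-OG over naive, at 0.86 on the log2 scale (SE 0.19, adjusted p 0.0287 by edgeR), and had 0.65 (SE 0.19, adjusted p 0.0638) for Ti over naive. Gstt1, which handles small halogenated compounds, had 8.98, 10.5 and 11.6 FPKM in Ti+I-OG, 8.96, 11.7 and 13.1 FPKM in Ti and 6.66, 8.36 and 4.74 FPKM in naive libraries. Its log2 fold change was 0.86 (SE 0.25, adjusted p 0.0521 by edgeR) for Ti+I-OG and 0.85 (SE 0.25, adjusted p 0.0604) for Ti over naive, and neither passed. Gstt3 did not pass at 0.67 (SE 0.25, adjusted p 0.0988 by edgeR) for Ti+I-OG or 0.81 (SE 0.25, adjusted p 0.0691) for Ti over naive. With the replicate block both genes passed for Ti+I-OG over naive, Gstt1 at an adjusted p of 0.0219 and Gstt3 at 0.0449 (edgeR). Both also passed for Ti over naive with the block.

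Gstz1, which isomerises maleylacetoacetate in the breakdown of tyrosine, had 17.9, 15.3 and 21.3 FPKM in Ti+I-OG, 15.1, 25.9 and 13.6 FPKM in Ti and 12.8, 12.3 and 11.3 FPKM in naive libraries. The naive libraries lay below all others and Ti replicate 2 was highest. The log2 fold change was 0.72 (SE 0.20, adjusted p 0.0469 by edgeR) for Ti+I-OG and 0.62 (SE 0.20, adjusted p 0.0756) for Ti over naive. Its exons overlap those of Pomt2, and because the library kit does not mark strand, reads of the overlap cannot be assigned. Gsta4, the alpha enzyme that conjugates hydroxynonenal, a product of lipid peroxidation, had 1.86, 2.33 and 4.36 FPKM in Ti+I-OG, 5.54, 4.81 and 3.76 FPKM in Ti and 2.27, 2.48 and 0.891 FPKM in naive libraries. All Ti libraries of Gsta4 were above the naive ones, and the log2 fold change of 1.38 (SE 0.41) did not pass (adjusted p 0.0654 by edgeR), but passed with the replicate block. Gstk1, the kappa enzyme of mitochondria and peroxisomes, had 5.22 to 7.40 FPKM in Ti+I-OG, 4.71 to 7.94 FPKM in Ti and 3.79 to 6.10 FPKM in naive libraries, and the groups overlapped.

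**Figure D4:**
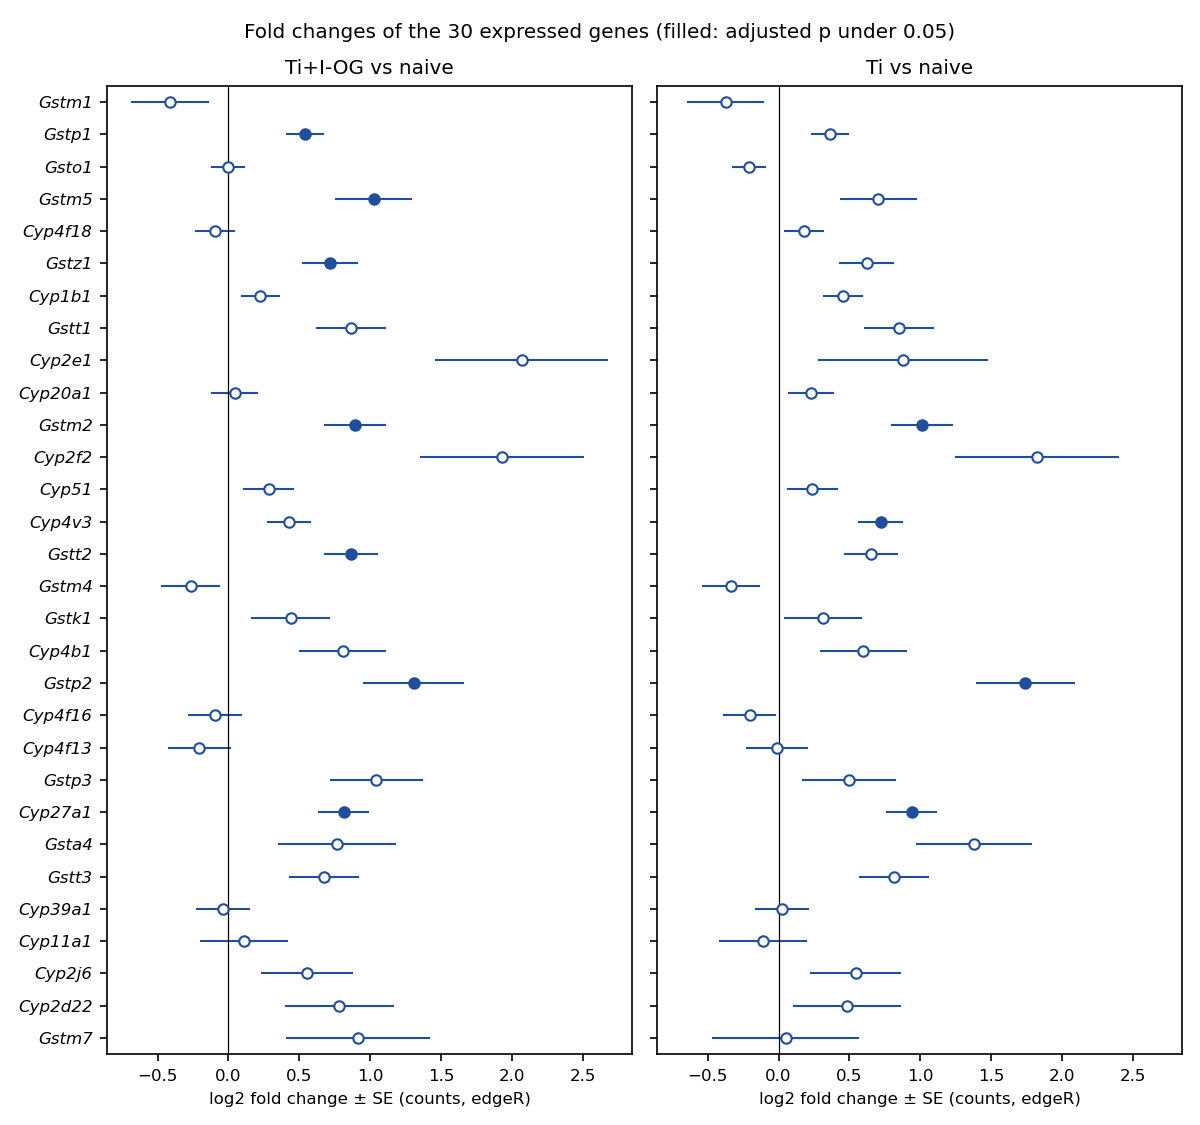
Log2 fold change (with SE) of the 30 expressed genes for Ti+I-OG over naive (left) and Ti over naive (right), in order of mean FPKM, from edgeR on counts. Filled points passed at an adjusted p under 0.05, 7 genes at the left and 4 at the right, and all of them are positive. Gstm1 and Gstm4 are negative in both panels.

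The genes that serve or surround these enzymes were read as lists. Of 13 tested electron donors and helpers of P450 enzymes, 3 were higher and none lower in Ti+I-OG than in naive libraries, where 3.84% of all tested genes were higher and 4.43% lower. In Ti, 2 were higher and none lower, where 4.05% of all tested genes were higher and 2.39% lower. The same shares of all genes stand behind the lists that follow. Cyb5r3, which reduces cytochrome b5, had 101.5 ± 5.88 CPM in Ti+I-OG, 105 ± 11.4 CPM in Ti and 68.0 ± 6.38 CPM in naive libraries (SD, n = 3 each), with log2 fold changes over naive of 0.58 (adjusted p 0.0281 by edgeR) in Ti+I-OG and 0.63 (adjusted p 0.0207) in Ti. Pgrmc1, a haem-binding partner of P450 enzymes, was higher by 0.57 (adjusted p 0.0370 by edgeR) in Ti+I-OG and 0.59 (adjusted p 0.0353) in Ti. Cyb5a, the cytochrome b5 of the endoplasmic reticulum, was higher in Ti+I-OG by 0.74 (adjusted p 0.0383 by edgeR). None of the 11 tested xenobiotic receptors and partners passed in any comparison.

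Of 22 genes of glutathione synthesis and the NRF2 pathway, 1 was higher and 2 were lower in Ti+I-OG than in naive libraries, and 1 was lower in Ti. Ggt1, the enzyme that cleaves glutathione outside the cell, had 2.09 ± 0.127 CPM in Ti+I-OG, 1.82 ± 0.291 CPM in Ti and 12.7 ± 6.07 CPM in naive libraries (SD, n = 3 each). Its log2 fold change over naive was -2.60 (adjusted p 0.00414 by edgeR) in Ti+I-OG and -2.80 (adjusted p 0.00219) in Ti, and it passed with any 1 library left out. Nqo1, a quinone reductase and textbook NRF2 target, was higher in Ti+I-OG by 0.76 (adjusted p 0.0455 by edgeR). Bach1, a repressor at antioxidant response elements, was lower in Ti+I-OG, with a log2 fold change of -0.68 (adjusted p 0.0251 by edgeR). The median of the list was 0.06 in Ti+I-OG and -0.12 in Ti over naive, beside 0.03 and 0.01 for all tested genes.

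Of 11 membrane glutathione transferases and relatives, 1 passed, Mgst3, a microsomal glutathione transferase and peroxidase, with 179.5 ± 19.6 CPM in Ti+I-OG and 82.2 ± 33.1 CPM in naive libraries (SD, n = 3 each) and a log2 fold change of 1.13 (adjusted p 0.0290 by edgeR). Among 25 tested conjugating, transporting and other detoxifying genes, 2 were higher and 1 was lower in Ti+I-OG than in naive libraries (12% called, beside 8.26% of all genes), and 5 were higher in Ti (20.0%, beside 6.43%). Both epoxide hydrolases, which open the epoxides that P450 enzymes form, passed in both groups. Ephx1 had 21.3 ± 2.21 CPM in Ti+I-OG, 22.9 ± 1.76 CPM in Ti and 10.8 ± 2.27 CPM in naive libraries, with log2 fold changes over naive of 0.98 (adjusted p 0.0157 by edgeR) in Ti+I-OG and 1.09 (adjusted p 0.00934) in Ti. Ephx2 had 14.1 ± 3.503 CPM in Ti+I-OG, 10.4 ± 2.32 CPM in Ti and 5.60 ± 0.497 CPM in naive libraries, with 1.33 (adjusted p 0.0125 by edgeR) in Ti+I-OG and 0.90 (adjusted p 0.0388) in Ti. Aldh1a3, an enzyme that makes retinoic acid, Sult1a1, a sulfotransferase, and Fmo1, a flavin monooxygenase named after its value was seen, were higher in Ti by 1.82, 0.64 and 0.74 (adjusted p 0.0239, 0.0355 and 0.0447 by edgeR). Abcc4, an exporter of conjugates, was lower in Ti+I-OG, at -0.81 (adjusted p 0.0490 by edgeR).

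In the vitamin D and retinoid list, 2 of 12 tested genes were higher and 1 was lower than in naive libraries in each treated group (25% called, beside 8.26% of all genes in Ti+I-OG and 6.43% in Ti). Rbp4, the carrier of retinol in blood, was higher by 1.52 (adjusted p 0.0276 by edgeR) in Ti+I-OG and 1.60 (adjusted p 0.0224) in Ti. Crabp2, which binds retinoic acid in the cell, averaged 0.882 CPM in Ti+I-OG, 1.05 CPM in Ti and 0.0646 CPM in naive libraries and was higher by 3.56 (adjusted p 0.0440 by edgeR) in Ti+I-OG and 3.82 (adjusted p 0.0353) in Ti. Its naive mean is below the floor of 3 counts, 0.121 to 0.145 CPM in these libraries, so the size of this change is uncertain. Dhrs9, a retinol dehydrogenase, was lower, with log2 fold changes of -1.13 (adjusted p 0.00414 by edgeR) in Ti+I-OG and -0.68 (adjusted p 0.0241) in Ti. Of 22 sterol synthesis genes Fdft1, which makes squalene, was higher in Ti+I-OG by 0.52 (adjusted p 0.0427 by edgeR), and of 15 tested steroid hormone enzymes Hsd11b1, which regenerates glucocorticoid, was lower, at -0.65 (adjusted p 0.0489 by edgeR). Of 11 tested arachidonic acid enzymes Ptgis, the prostacyclin synthase, was higher in Ti by 0.95 (adjusted p 0.0490 by edgeR). With each library left out in turn, 1 of these 12 calls between Ti and naive (Ggt1) and 3 of 15 between Ti+I-OG and naive (Ggt1, Ephx2 and Dhrs9) held throughout.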

How the data were processed

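For 22183 genes in 9 libraries, 3 per group by sample title, the authors gave 2 values, the estimated count and the FPKM. Tools named in the submitters' processing notes, with no order, are fastp, RSEM, edgeR, DESeq2 and StringTie 1.3.1. The aligner, build and annotation were not given in the sources used here. The kit named in the labels' protocols does not mark strand. Of the estimated counts the authors deposited, 8.49% were not whole, and all were rounded. No library was a copy of another of its group, with a chi-square between them of 13.1 to 136 per degree of freedom. Intervals and floors cover counting error only.

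edgeR 4.0.16 (R 4.3.3) with TMM normalisation and the quasi-likelihood test was fitted once to all 9 libraries with a mean per group (6 residual degrees of freedom). Its filterByExpr step kept 14211 genes. Tests were two-sided with Benjamini-Hochberg adjustment and a threshold of 0.05, and fold changes come from this fit, with their SE derived from its F statistic. TMM-normalised CPM are given as mean ± SD. The fit was tested on simulated counts. The deposited FPKM values served for levels, for the expression rule and, as log2(FPKM + 1) or log2(FPKM + 0.1), for limma 3.58.1. Alternatives were DESeq2 1.42.0, other size factors, no filter, 6 libraries, the replicate block and leaving out each library. The members and lists were chosen with earlier results of these data known. Named genes were the 10 highest by mean FPKM, every gene that passed, a list of P450 genes with sterol, steroid, vitamin, fatty acid or xenobiotic roles, and up to 4 genes that passed per list. Genes outside this rule (Cyp2f2, Cyp2b10, Cyp39a1, Gsta4, Gstt3, Gstp3 and Gstm4 among them) were chosen after their values were seen.

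The numbers in the titles were checked as pairs by the correlation of deviations from group means. Same-numbered Ti+I-OG and naive libraries gave r of 0.197, 0.115 and 0.273, all over a chosen limit of 0.1. Blocked results are given mainly for that comparison. The block was fitted to all 9 libraries at once, so it took the Ti numbers as pairs too. Promoters and their build come from RefSeq, and shared sequence and overlaps from GENCODE transcripts. Exons of Cyp4f18, Cyp51, Gstt3 and Cyp11a1 overlap those of another gene, and a share of the 75-base windows of Cyp4f16 (16.1%), Gstm1 (14.8%), Cyp4x1 (10.8%), Cyp2f2 (7.37%), Cyp4b1 (7.15%), Cyp4v3 (6.40%) and Cyp2s1 (6.03%) occurs in another gene, so their values are uncertain.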

Additional observations from a re-analysis of the deposited data

How the results depend on the processing

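The number of P450 and GST genes called against naive depended on the fit, and the cause was not tested. Between Ti+I-OG and naive (7 genes in the fit described, and 1174 of all genes) it was 3 with only the 6 libraries compared, 0 with limma on log2(FPKM + 1) without a filter and 0 to 10 with each library left out (10 with DESeq2, which added Cyp2e1, Gstp3 and Gstt1), and of all genes 770 were called with the 6 libraries, 2440 with DESeq2, 1787 and 1853 with limma at pseudocounts of 1 and 0.1, and 59 to 2119 with each library left out. Between Ti and naive (4 genes, and 914 of all genes) it was 10 with DESeq2 (which added Cyp1b1, Gsta4, Gstt1, Gstt2, Gstt3 and Gstz1), 2 with the 6 libraries, 0 with limma without a filter and 0 to 8 with each library left out, and of all genes DESeq2 called 1859, limma 556 and 544, limma without a filter 127, the 6 libraries 357 and the fits with a library left out 100 to 1999. Between Ti+I-OG and Ti every fit called 0 of the P450 and GST genes, and of all genes (6) DESeq2 called 16, limma without a filter 2 and the fits with a library left out 0 to 6. For any difference among groups (5 genes, and 820 of all genes) the counts were 11 with DESeq2, 3 and 3 with limma at both pseudocounts, 0 with limma without a filter and 0 to 8 with each library left out, and 2473, 77 and 139 to 1729 of all genes with DESeq2, limma without a filter and a library left out. The count of all genes is not given here for limma at both pseudocounts among groups. Nor is it given for limma without a filter between Ti+I-OG and naive. The P450 and GST counts of those fits therefore cannot be set beside all genes.

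With the replicate block, the counts were 13 genes between Ti+I-OG and naive, 12 between Ti and naive and 11 among groups, and 3450, 2968 and 3313 of all genes. The 12 between Ti and naive, all higher, were Cyp1b1, Cyp27a1, Cyp2f2, Cyp4v3, Gsta4, Gstm2, Gstm5, Gstp2, Gstt1, Gstt2, Gstt3 and Gstz1. The same-numbered Ti and naive libraries had r of -0.02, 0.33 and 0.24 and the Ti+I-OG and Ti ones 0.07, 0.20 and 0.22. Those values did not all exceed 0.1, the limit chosen here, yet the blocked fit paired all 9 libraries by number. In 16 of 18 matches of a library to another group the best correlation was with its own number. The correlations thus do not set the comparison of Ti+I-OG with naive apart. The block changed no call of a P450 or GST gene between Ti+I-OG and Ti.

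Without the gene of the highest mean, the log2 difference of the summed FPKM was 0.33 in place of 0.03 (GST, Ti+I-OG over naive), 0.29 in place of 0.05 (GST, Ti over naive), 0.46 in place of 0.20 (P450, Ti+I-OG over naive) and 0.44 in place of 0.31 (P450, Ti over naive). Signs reversed for Gsto1 between Ti+I-OG and naive, from -0.0042 to 4e-04 with the block and to between -0.077 and 0.025 with a library left out, for Cyp20a1 in the same comparison, from 0.04 to -0.12 and -0.14 with limma at pseudocounts of 1 and 0.1, -0.12 without a filter and -0.01 to 0.092 with a library left out, for Cyp26b1, from 0.33 to between -0.0088 and 0.68 with a library left out, and for Gstp2 between Ti+I-OG and Ti, from -0.43 to 0.14 with its counts and those of Gstp1 summed. The summed feature was mostly Gstp1 counts, so its sign does not speak for Gstp2. Over all single genes and settings, 942 values kept direction and side of the threshold, 252 no longer passed, 42 newly passed and 10 reversed. The 942 include values of genes that did not pass in the fit described and so could not be lost. They therefore do not measure how stable the calls were. The expression rule gave 25 to 35 genes at other settings and 29 or 30 with a library left out. Depth limits what can be said of the 45 genes without a count.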
